A study of Drosophila melanogaster with 12 samples.

Results

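Isolated PSC peaks are peaks called for Posterior Sex Combs (PSC) in 1 sample of control cells that lie far from any other peak of the same list. They were selected on the positions of the peaks in PSC control replicate 1: a peak on chromosome arm 2L, 2R, 3L, 3R, 4 or X was kept when the gap to the nearest other peak of that list was 20000 bp or more on both sides. This left 517 isolated sites of 4796 arm peaks (10.8%), and the other 4279 peaks of the same list are called other peaks. The selection used positions only, so the gap, arm, score and length of the sites in PSC control replicate 1 are given as a description, while the 5 other lists played no part in the choice.

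The study mapped PSC and Polyhomeotic (PH) by ChIP-SEQ in Drosophila S2 cells, an embryo-derived line. The mitotic samples, 2 of PSC and 1 of PH, came from cells held for 15 h in 350 ng/ml colchicine (880 nM) and then sorted by FACS on phosphorylated histone H3 (H3S10p). The control samples, again 2 of PSC and 1 of PH, came from asynchronous cultures without colchicine, sorted on histone H3. PSC was immunoprecipitated from S2 cells with biotinylated antibodies and streptavidin beads. PH was recovered on streptavidin beads from a stable S2 line that expresses biotin-tagged PH from a metallothionein promoter, in both its mitotic and its control sample. Colchicine and the sorting antibody differ together with the cell cycle state, so their parts in any mitotic difference cannot be told apart, and all samples derive from a single cell type. PH has no replicate in either state. Input samples were not analysed here.

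Polycomb Group proteins keep developmental regulators, the Hox genes among them, silent through cell division. PSC and PH are both subunits of PRC1, the complex that compacts chromatin and carries a ubiquitin ligase for histone H2A. In flies the group is recruited to Polycomb response elements, and many targets carry several neighbouring binding sites within a broad domain. A peak with no neighbour is the other extreme of that arrangement.

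The 3 mitotic lists were much shorter than the control lists. On the 6 arms PSC mitotic replicate 1 held 566 peaks, PSC mitotic replicate 2 held 53 and PH mitotic held 149, against 4796 in PSC control replicate 1, 3254 in PSC control replicate 2 and 4589 in PH control. Each list carries a score per peak, read here as the peak caller's p-value on a -10 log10 scale, and the lowest score ranged from 50 in PSC mitotic replicate 1 and PSC control replicate 2 to 165.56 in PH control. A site without an overlapping peak in a list was therefore below the threshold of that list, which does not show that the protein was absent. The lists hold no reads, so the depth behind each list cannot be read from them. The peaks of a list are not replicates of a condition, and the exact (Clopper-Pearson) 95% intervals given for shares cover counting error only, not error between cultures.

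Isolated sites scored like the rest of the list. Their scores in PSC control replicate 1 had a median of 682.76 (quartiles 346.14 and 1192.06, range 163.43 to 3225.28), against a median of 657.47 in other peaks (quartiles 354.01 and 1223.07). Each of 10 equal bins of all arm peaks by score held between 8.51% and 12.6% of the isolated sites. The highest scores crowd at 3100, where 12 isolated sites (2.32%) and 143 other peaks (3.34%) share the same value, so the order of the strongest sites cannot be read from it.

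The sites were somewhat shorter than other peaks. Median length was 1605 bp in isolated sites (range 1022 to 13143) and 1721 bp in other peaks (longest 70123), and the isolated median was the lower in 9 of 10 score bins. Peaks of 4000 bp or more made up 3.48% of isolated sites (18 of 517) and 6.59% of other peaks (282 of 4279). The exception was the seventh bin, with medians of 1925.5 bp in isolated sites and 1885.5 bp in other peaks. Long peaks, which can span a whole Polycomb domain, were the less common kind among isolated sites.

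The median gap to the nearest peak was 32476 bp in isolated sites, against 3198 bp in other peaks. A gap of 50000 bp or more flanked 119 isolated sites (23.0%), and 25 (4.84%) had 100000 bp or more. On the wider of their 2 sides the median gap was 67256 bp. At the edge of the rule, the last sites inside it were on 3L from 9501613 to 9505737 (gap 20011 bp), on 3R from 15882626 to 15884148 (20050 bp) and on 2L from 4660369 to 4661833 (20099 bp). The nearest peaks left out were on X from 11282987 to 11285882 (19976 bp), on 2L from 19816645 to 19818012 (19974 bp) and on 2R from 20790369 to 20792324 (19921 bp). All 6 of these had a peak in PH control, none had 1 in a mitotic list, and the numbers of peaks on either side of the limit were 51 with gaps of 20000 to below 22000 bp and 65 with gaps of 18000 to below 20000 bp. Coordinates here and below are 1-based positions in the dm3 build.

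Isolated sites were spread over all arms. The isolated share was lowest on 2R (90 of 980 peaks, 9.18%) and higher on X (91 of 696, 13.1%), with 2L (107 of 901, 11.9%), 3L (98 of 979, 10.0%) and 3R (120 of 1189, 10.1%) between them. The short chromosome 4 had 11 isolated sites of 51 peaks (21.6%, interval 11.3 to 35.3%). The X sites had the lowest scores, with a median of 456, against medians of 684.91 to 855.93 on the other arms, and the other peaks of X were as low (457.07).

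Toward the centromere the peaks stood further apart. Within 2000000 bp of the most proximal peak of 2L, 2R, 3L, 3R and X, a window chosen after the data were seen, 47 of 257 peaks were isolated (18.3%, interval 13.8 to 23.6%), against 459 of 4488 over the rest of these arms (10.2%, interval 9.36 to 11.2%). On 3L it was 9 of 24 and on 2R 13 of 49, but on 3R only 9 of 101. The median score of the proximal sites was 989.02, against 655.8 for isolated sites elsewhere on these arms, but proximal medians were the higher only on 2L, 2R and 3L, and not on 3R (740.03, against 747.08) or X (295.425, against 473.44). The longest unbroken run of isolated sites lay here too, with 8 in a row on 3L from 23117892 to 24531302. It holds the 3 sites with the widest gaps: 24528462 to 24531302 (505412 bp, the last peak of its arm), 24020308 to 24023049 (311392 bp) and 23329901 to 23333280 (151609 bp), with control scores of 2903.07, 1487.16 and 2437.82. All of these 3 had a PH control peak, only the last of the arm also had a PSC control replicate 2 peak, and none had a mitotic peak.

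Many isolated sites stood alone between groups of closer peaks. The 517 sites formed 328 runs of consecutive isolated peaks, and 205 of these runs were a single site.

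**Figure D1:**
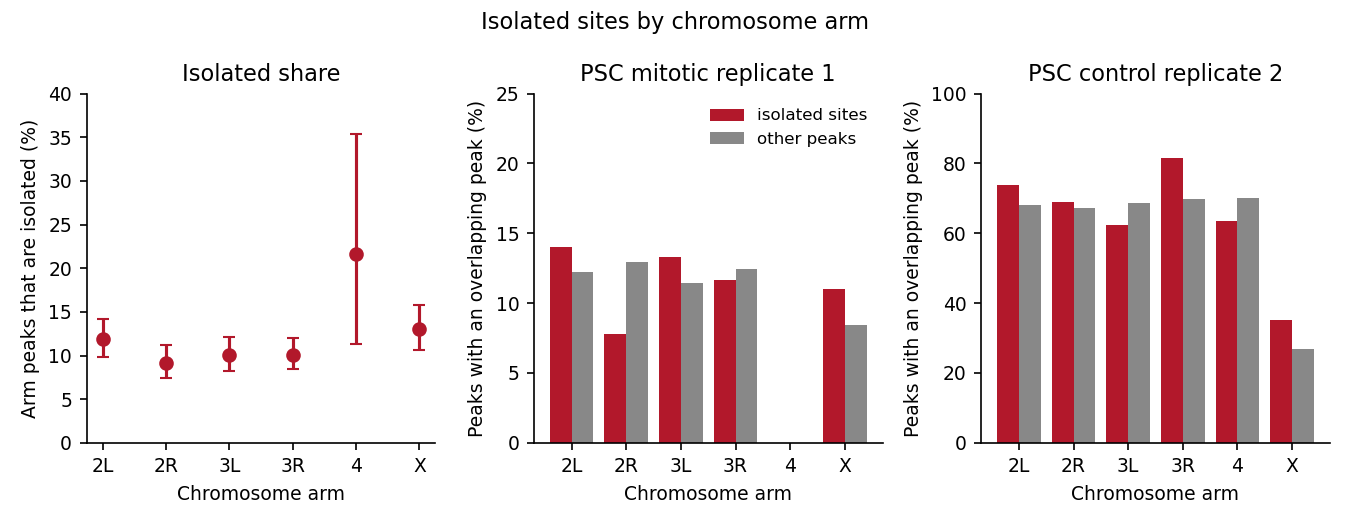
The left panel plots the percentage of each arm's PSC control replicate 1 peaks that were isolated, with exact 95% intervals, and the other panels plot the percentage of isolated sites (red) and other peaks (grey) that overlapped a peak of PSC mitotic replicate 1 or PSC control replicate 2. Chromosome 4 had the highest isolated share (21.6%) and no site in PSC mitotic replicate 1, and X had the lowest shares in PSC control replicate 2 (35.2% and 26.8%).

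The other control samples show whether the sites recur as peaks, and as isolated peaks, outside the list that chose them. PH control is of a different protein, pulled down by its own tag without an antibody, though streptavidin beads were used for both proteins. It held a peak at 463 of 517 isolated sites (89.6%, interval 86.6 to 92.1%), beside 91.1% of all arm peaks and 91.3% of other peaks. PSC control replicate 2 held a peak at 339 sites (65.6%, interval 61.3 to 69.7%), beside 62.9% of all arm peaks and 62.6% of other peaks. Both shares lay within 3 percentage points of those of other peaks.

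To compare like with like, the share among other peaks was weighted to the score bins of the isolated sites, and intervals of differences take that weighted share as fixed. For PSC control replicate 2 the weighted share of other peaks was 62.7%, so that isolated sites stood 2.85 percentage points above it (interval -1.42 to 6.94). For PH control it was 91.4%, a difference of -1.82 points (interval -4.78 to 0.685). Both intervals include 0. Counting only PSC control replicate 2 peaks with a score of at least 100 gave 42.2% of isolated sites, beside 35.2% of all arm peaks, a difference of 8.20 points (interval 3.90 to 12.6), an interval that does not include 0. The same held at a gap limit of 10000 bp (3.93 points, interval 1.06 to 6.71). It also held for the 204 sites with no missing peak number beside them (7.87 points, interval 1.15 to 13.95), a restriction described below and chosen after the data were seen. Only isolated sites were restricted in this way and the other peaks stayed the same, so this last comparison is not like with like.

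Sorted by both lists, 328 isolated sites (63.4%) had a peak in PH control and in PSC control replicate 2, 135 (26.1%) in PH control alone, 11 (2.13%) in PSC control replicate 2 alone and 43 (8.32%) in neither. Other peaks gave 61.1% in both, 30.1% in PH control alone, 1.5% in PSC control replicate 2 alone and 7.22% in neither. The 43 sites seen in PSC control replicate 1 alone were low in score. The strongest of them were on 3L from 12074304 to 12076010 (655.88), on 3L from 2150035 to 2153543 (465.34) and on X from 12860868 to 12862112 (456). In the lowest score bin PH control held a peak at 31 of 51 isolated sites, and from the fifth bin upwards at 51 of 52, 64 of 65 and then every site. The sites without a PH peak were thus mostly the weak ones. The share in PH control but not in PSC control replicate 2 was 26.1%, against a weighted 30.1% of other peaks (difference -4.02 points, interval -7.76 to -0.00744), while the intervals for both lists, PSC control replicate 2 alone and neither included 0.

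The shares in PSC control replicate 2 differed by arm. On X it held a peak at 32 of 91 isolated sites (35.2%, interval 25.4 to 45.9%), against 307 of 426 on the other arms (72.1%, interval 67.5 to 76.3%). Other peaks showed the same split, with 26.8% on X and 68.5% elsewhere. X contributed 6.48% of the arm peaks of PSC control replicate 2 and 14.5% of those of PSC control replicate 1. Off X the differences went both ways. The isolated share was above that of other peaks on 3R (81.7%, against 69.9%), 2L (73.8%, against 68.0%) and 2R (68.9%, against 67.3%), and below it on 3L (62.2%, against 68.6%) and chromosome 4 (63.6%, against 70%).

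Scores at the sites followed each other closely between PSC control replicate 1 and PH control and less between the PSC control replicates. The paper reports that its PSC control replicates matched well by the number of reads within peaks. Peak caller scores are a different measure, so the lower values here do not show that the replicates disagree. Across the 463 sites found in PH control the Spearman correlation of the scores was 0.880 (Pearson 0.894), and across the 339 found in PSC control replicate 2 it was 0.380 (Pearson 0.288). Across other peaks the values were 0.869 (Pearson 0.886) over 3906 peaks in PH control and 0.597 (Pearson 0.522) over 2680 in PSC control replicate 2. The isolated sites thus had the lower correlation with PSC control replicate 2, and the difference was not tested. These values describe peaks of 1 pair of lists each and share the set of sites that passed both thresholds. Centres of the overlapping peaks lay a median of 39 bp apart in PH control and 54.5 bp in PSC control replicate 2. The largest distances were 4135.5 and 3332.5 bp. Median scores at the sites were 813.62 in PH control and 123.85 in PSC control replicate 2 (over all peaks of these lists, 753.51 and 104.645).

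Isolation itself recurred in the other control lists. Of the 463 sites found in PH control, the PH peak at 411 (88.8%) also stood 20000 bp or more from any other PH peak, against 82 of the 3906 other peaks found there (2.10%). In PSC control replicate 2 this held for 309 of 339 (91.2%), against 281 of 2680 other peaks (10.5%). Over all their arm peaks, 11.4% of PH control and 18.7% of the shorter PSC control replicate 2 list were isolated. Counting all 517 sites, 464 had no further PH control peak within 20000 bp, 490 no further PSC control replicate 2 peak, and 450 (87.0%) no further peak of any control list.

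The deposited lists skip numbers between peaks, and a missing number was assumed to mark a call left out of the deposited list, which no source used here states. A number was missing in 316 of the 840 gaps next to an isolated site, against 703 of the 3950 other gaps. Per 100000 bp of gap this came to 0.829 missing numbers beside isolated sites and 1.60 elsewhere. Among the 512 sites with a neighbour on both sides, 201 (39.3%) had no missing number on either side.

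The main question was whether a site without neighbours keeps PSC or PH in mitotic cells as often as a site among neighbours. PSC mitotic replicate 1 held a peak at 59 of 517 isolated sites (11.4%, interval 8.80 to 14.5%), beside 11.6% of all arm peaks and 11.6% of other peaks. PH mitotic held a peak at 16 isolated sites (3.09%, interval 1.78 to 4.98%), beside 3.04% of all arm peaks and 3.04% of other peaks. PSC mitotic replicate 2, the shortest list, held a peak at 8 (1.55%, interval 0.670 to 3.03%), beside 1.11% of all arm peaks and 1.05% of other peaks. Most isolated sites, 456 of 517, had no peak in any mitotic list, and 11.8% had at least 1, beside 11.8% of all arm peaks.

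Weighting other peaks to the scores of the isolated sites left no detectable difference. The weighted shares were 11.1% in PSC mitotic replicate 1, 0.990% in PSC mitotic replicate 2 and 2.83% in PH mitotic. Isolated sites differed from these by 0.266 points (interval -2.34 to 3.33) in PSC mitotic replicate 1, by 0.557 points (interval -0.320 to 2.04) in PSC mitotic replicate 2 and by 0.265 points (interval -1.05 to 2.15) in PH mitotic. The intervals bound a difference of a few points either way in PSC mitotic replicate 1, but with 8 and 16 sites found, the upper limits for PSC mitotic replicate 2 and PH mitotic, 3.03% and 4.98%, are well above the weighted shares. At a gap limit of 10000 bp, which takes in 1115 sites, the difference in PSC mitotic replicate 2 was 1.13 points (interval 0.396 to 2.13) and no longer included 0. Seen from the mitotic lists, 61 of the 566 arm peaks of PSC mitotic replicate 1 (10.8%), 8 of 53 of PSC mitotic replicate 2 (15.1%) and 16 of 149 of PH mitotic (10.7%) lay at isolated sites, beside the 10.8% of control peaks that were isolated.

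**Figure D2:**
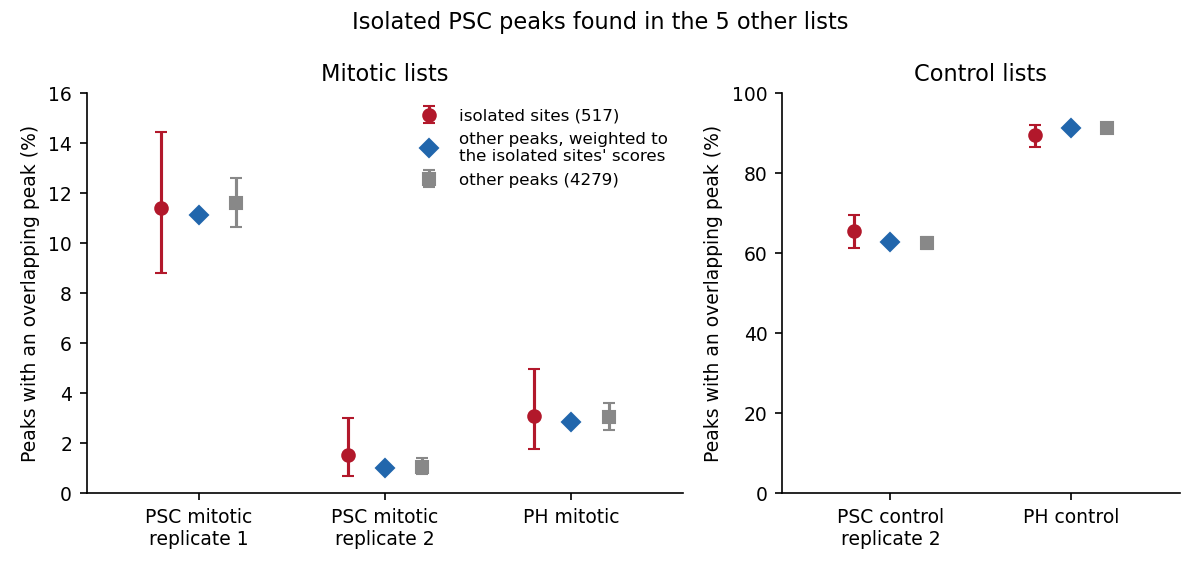
Percentage of isolated sites (red circles), of other peaks weighted to the same scores (blue diamonds) and of all other peaks (grey squares) that overlapped a peak of each other list, with exact 95% intervals for the unweighted shares. The weighted share of other peaks lies inside the interval of the isolated sites in all 5 lists, from 0.990% in PSC mitotic replicate 2 to 91.4% in PH control.

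Wider gaps did not show a steady trend. In PSC mitotic replicate 1 the share found was 10.5% of peaks with a gap under 1000 bp, 11.5% at 1000 to 5000 bp, 11.5% at 5000 to 10000 bp, 13.9% at 10000 to 20000 bp, 10.6% at 20000 to 50000 bp and 14.3% at 50000 bp or more. The last class holds 17 of 119 sites, with an interval of 8.55 to 21.9% that covers all the other classes. With the gap limit set at 50000 bp, the difference from other peaks of the same scores was 3.98 points (interval -1.76 to 11.6). In PSC control replicate 2 the share was 59.0% under 1000 bp, 67.8% at 20000 to 50000 bp and 58.0% at 50000 bp or more.

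**Figure D3:**
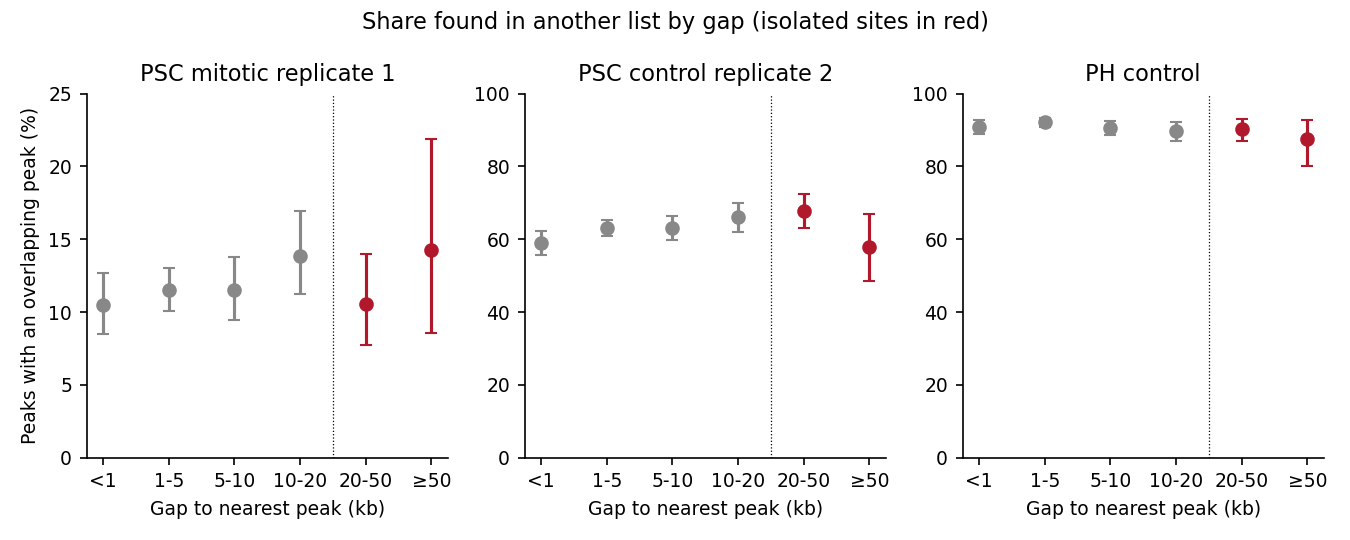
Percentage of PSC control replicate 1 peaks that overlapped a peak of PSC mitotic replicate 1, PSC control replicate 2 or PH control, by the gap to the nearest other peak in kb, with exact 95% intervals; the red classes to the right of the dotted line are the isolated sites. The shares in PSC mitotic replicate 1 stay between 10.5% and 14.3% across the 6 classes.

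Found and not found sites differed in control score. Isolated sites found in PSC mitotic replicate 1 had a median control score of 1575.37, against 616.545 in those not found. In the 2 highest score bins 37 of 98 isolated sites were found (37.8%, interval 28.2 to 48.1%), against 335 of 861 other peaks (38.9%). In the 5 lowest bins it was 5 of 251 isolated sites (1.99%, interval 0.650 to 4.59%), against 34 of 2147 other peaks (1.58%). The share thus grew with the score in isolated sites as it did in other peaks. Many strong sites were not found: of the 12 isolated sites at a score of 3100, 4 were found, against 85 of 143 other peaks at that score (33.3%, interval 9.92 to 65.1%, and 59.4%, interval 50.9 to 67.6%). Some of the 12 were on chromosome 4, where no mitotic list held a peak, and the 2 shares were not matched by arm.

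**Figure D4:**
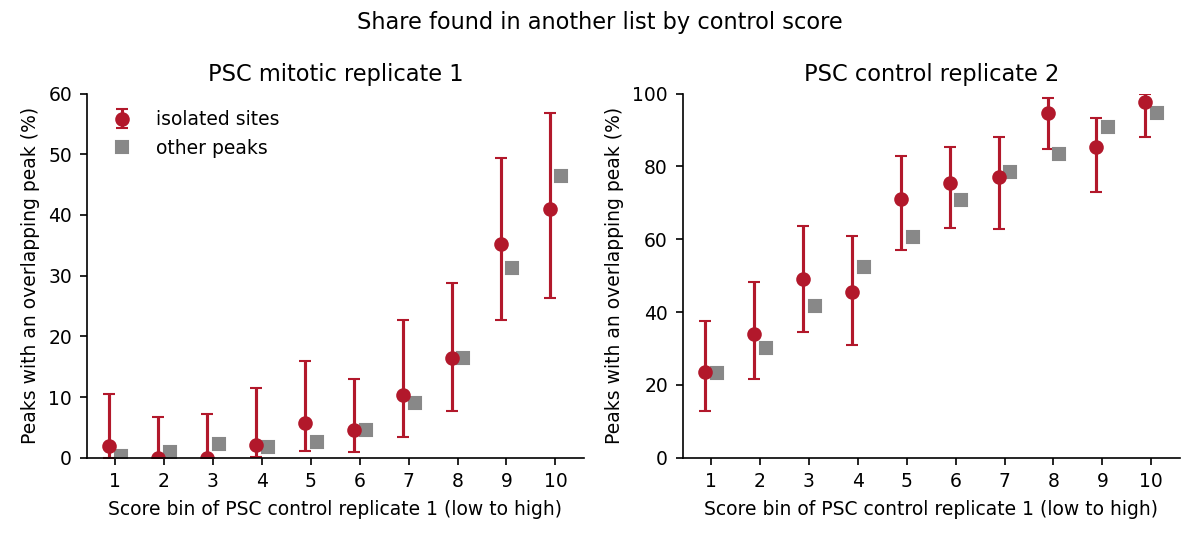
Percentage of isolated sites (red circles, exact 95% intervals) and of other peaks (grey squares) that overlapped a peak of PSC mitotic replicate 1 or PSC control replicate 2, in 10 bins of the PSC control replicate 1 score from low to high. In PSC mitotic replicate 1 the isolated share was 1.96% in the lowest bin and 40.9% in the highest, where other peaks reached 46.4%.

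Among the strongest isolated sites, those found in mitotic cells tended to be narrower, in a comparison added after the data were seen. In the 2 highest score bins the 37 found sites had a median control length of 1835 bp and the 61 not found 2591 bp, at similar median scores of 1997.28 and 1943.42. The PH control peak at the same sites, which the selection did not use, had median lengths of 1991 bp at found sites (quartiles 1801 and 2837) and 2518 bp at sites not found (quartiles 1998 and 3437), so the groups overlapped. In other peaks of these bins the PH control medians were closer, 2614 bp where found and 2824 bp where not found. Whether the difference in width differs between isolated sites and other peaks was not tested. PSC control replicate 2 held a peak at 34 of the 37 found and 55 of the 61 not found, with median scores of 237.635 and 168.52.

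All 59 isolated sites found in PSC mitotic replicate 1 had a PH control peak, beside 91.1% of all arm peaks. Of the 59 sites, 55 had a PSC control replicate 2 peak, beside 62.9% of all arm peaks. The 4 without were 3 on X, from 9979669 to 9981083, from 5930724 to 5932449 and from 4976159 to 4979938, and 1 on 3R from 4386926 to 4390354. The 3R site had a mitotic score of 50, the lowest value in that list. Each of the 55 thus had a peak in all 3 control lists. The same shares were not computed for other peaks found in PSC mitotic replicate 1. Over all arm peaks, 556 of PSC control replicate 1, 519 of PSC control replicate 2 and 554 of PH control overlapped a peak of that mitotic list. Such support was therefore not shown to be particular to isolated sites. Found sites also had the higher control scores. In the 2 highest score bins every isolated site had a PH control peak, whether found in PSC mitotic replicate 1 or not. PSC control replicate 2 held a peak at 91.9% of those found and 90.2% of those not found.

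Mitotic peaks at isolated sites had scores like those at other peaks in PSC mitotic replicate 1, where the 59 peaks scored 50 to 835.01 with a median of 120.09, against a median of 116.62 at other peaks. The 8 peaks of PSC mitotic replicate 2 scored 76.9 to 177.77, median 91.425, against 117.4 at other peaks. The 16 of PH mitotic scored 54.26 to 278.9, median 69.245, against 81.775 at other peaks. The mitotic peak was shorter than the control peak at all 59, all 8 and all 16 of these sites, as it was at 491 of 497, 45 of 45 and 129 of 130 other peaks in the same lists. At isolated sites the mitotic lengths were 1202, 1036 and 1052 bp, against 1303, 1061 and 1235 bp at other peaks. Centres lay a median of 68.5 bp and at most 1312 bp from the control centre in PSC mitotic replicate 1. Overlap was needed for a peak to count, so part of this closeness is built in. Scores are not comparable between lists that may differ in depth. Across the 59 sites the mitotic score followed the control score only weakly, with a Spearman correlation of 0.196 (Pearson 0.102).

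**Figure D5:**
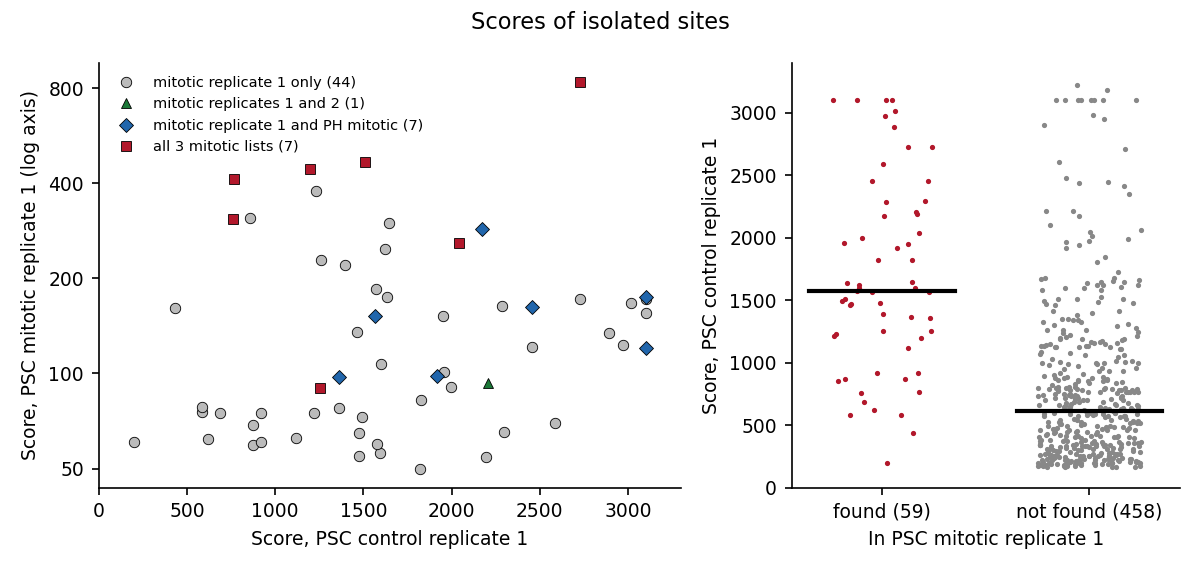
The left panel plots the score in PSC mitotic replicate 1 (log axis) against the score in PSC control replicate 1 for the 59 isolated sites found in both, by which further mitotic lists held a peak, and the right panel plots the control scores of the 59 found and 458 not found sites with a line at the median, spread sideways at random for clarity. Found sites had the higher median (1575.37 against 616.545), and 5 of the 7 sites in all 3 mitotic lists had mitotic scores above 300.

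The 3 mitotic lists picked overlapping isolated sites. Of the 61 sites with any mitotic peak (11.8%, beside 11.8% of all arm peaks), 44 were in PSC mitotic replicate 1 only, 7 in PSC mitotic replicate 1 and PH mitotic, 1 in both PSC mitotic replicates without PH mitotic and 7 in all 3 lists. The remaining 2 were in PH mitotic only, on 2R from 15884576 to 15885689 (79.64 in PH mitotic, against 190.02 in PSC control replicate 1) and on 3L from 6896606 to 6898160 (62.26, against 975.75). All 8 sites of PSC mitotic replicate 2 were thus among the 59 of replicate 1. Among other peaks, 497 of the 505 with any mitotic peak were in PSC mitotic replicate 1, so this was not particular to isolated sites. Sites in all 3 lists made up 1.35% of isolated sites (interval 0.546 to 2.77%) and 0.771% of other peaks. PSC mitotic replicate 1 carries the count of 61: without that list it was 17 sites, 3.29%.

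The strongest mitotic site among them was on 3L from 505175 to 506936. It scored 835.01 in PSC mitotic replicate 1, 177.77 in PSC mitotic replicate 2 and 278.9 in PH mitotic, against 2730.55 in PSC control replicate 1, 332.17 in PSC control replicate 2 and 3101.15 in PH control. Its nearest neighbour lay 23609 bp away. It was the highest of the isolated sites in each of the 3 mitotic lists, and its control peak was 1762 bp long, against 1521 bp in PSC mitotic replicate 1.

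On 2L the site from 5365203 to 5366878 scored 466.44, 82.37 and 155.59 in PSC mitotic replicate 1, PSC mitotic replicate 2 and PH mitotic, against 1511.58, 262.12 and 1427.97 in PSC control replicate 1, PSC control replicate 2 and PH control. The 2L site from 21396527 to 21398093 scored 307.58, 151.24 and 113.45 in the same mitotic lists, against 762.61, 153.33 and 1157.43 in the same control lists. Neither site had a missing peak number in its gaps.

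On X 3 sites were found in all mitotic lists. The site from 18132748 to 18134239 scored 442.38, 94.08 and 156.68 in PSC mitotic replicate 1, PSC mitotic replicate 2 and PH mitotic, against 1199.16, 90.15 and 1126.34 in PSC control replicate 1, PSC control replicate 2 and PH control. It is isolated in both PSC control lists but not in PH control, where a second peak stood 2681 bp away. The site from 13457062 to 13458476 scored 412.31, 86.06 and 69.17 in the mitotic lists, against 767.72, 125.07 and 1027.84 in the control lists, with 51314 bp to its nearest neighbour. The site from 17425251 to 17427114 scored 258.6, 76.9 and 66.16 in the mitotic lists, against 2040.88, 88.15 and 1802.48 in the control lists. For all 3, the score in PSC control replicate 2 lay near the median of that list (104.645).

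In all, 15 isolated sites were in more than 1 mitotic list (2.90%, beside 3.13% of other peaks). Against other peaks weighted to the same scores the difference was -0.0324 points (interval -1.30 to 1.81). The other sites of the 10 strongest of these lacked a peak in PSC mitotic replicate 2. The 3L site from 13957145 to 13959919 scored 286.39 in PSC mitotic replicate 1 and 61.35 in PH mitotic, against 2171.83, 130.34 and 2323.49 in PSC control replicate 1, PSC control replicate 2 and PH control. The 2L site from 15909610 to 15914580 is the broad case, 4971 bp long with 134480 bp to its nearest neighbour. It scored 174.7 in PSC mitotic replicate 1 and 108.55 in PH mitotic, against 3100, 484.97 and 3100 in the control lists. The 2L site from 5723300 to 5725405 scored 162.29 and 54.44 in PSC mitotic replicate 1 and PH mitotic, against 2456.83, 299.07 and 2482.01 in the control lists, and the 2R site from 4307617 to 4309166 scored 151.7 and 61.52, against 1567.7, 180.78 and 1178.19. The fifth highest score in PSC mitotic replicate 1, 377.38, was that of a 3R site from 9259943 to 9261543 that had no peak in the other mitotic lists and had control scores of 1230.39, 98.28 and 1631.63.

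The 5 isolated sites named for their control scores had no mitotic peak. The site on 3R from 11923020 to 11926468 scored 3225.28 in PSC control replicate 1, 309.1 in PSC control replicate 2 and 3100 in PH control. The site on 3L from 18452845 to 18455082 scored 3180.11, 259.8 and 2926.86 in the same lists. The next 12 sites tied at 3100, and the 3 of them with the lowest start positions, on chromosome 4 from 149213 to 153724 and from 378371 to 381524 and on 2R from 710929 to 717479, completed the 5 named. All 5 had peaks in all control lists, while 4 others among the 12 ties were found in PSC mitotic replicate 1. At the opposite end, the isolated site with the lowest control score that was found in PSC mitotic replicate 1 was on 2L from 15643356 to 15644730, with a mitotic score of 60.74 and a control score of 201.85.

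That 2L site was also part of 1 of the 2 neighbouring pairs in which both sites were found. Isolated sites followed each other along an arm in 189 pairs. In 145 of these neither was found in PSC mitotic replicate 1, in 42 only 1 was, and in 2 both were. Only 59 of all 517 isolated sites (11.4%) were found, so a low number of pairs with both is not by itself unusual. An expected number was not computed. The pairs with both were on 2L, from 15498169 to 15501201 and from 15643356 to 15644730, and on 2R, from 4307617 to 4309166 and from 4459454 to 4461171, with gaps of 142154 and 150287 bp.

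By arm, the isolated share found in PSC mitotic replicate 1 was 14.0% for 2L (15 of 107), against 12.2% of its other peaks. For 2R it was 7.78% (7 of 90), against 12.9%. For 3L it was 13.3% (13 of 98), against 11.5%, and for 3R 11.7% (14 of 120), against 12.4%. X gave 11.0% (10 of 91), against 8.43%. Of these arms 2R was the lowest in isolated sites, though not in other peaks. Chromosome 4 gave 0 of 11, and 0 of 40 other peaks. Taking 3 counts of 11 as a rough limit, not the exact interval, 0 of 11 allows a share of up to about 27.3%. PH mitotic held a peak at 5 sites of 3L, 4 of 2L, 3 each of 2R and X and 1 of 3R. In the proximal 2000000 bp of the long arms, 3 of 47 isolated sites were found in PSC mitotic replicate 1 (6.38%, interval 1.34 to 17.5%), against 56 of 459 elsewhere (12.2%, interval 9.35 to 15.5%). On 2L the difference ran the other way, with 2 of 10 proximal sites (20%) and 13.4% of the rest. Other peaks showed 3.33% (7 of 210) in the proximal windows and 12.2% in the rest.

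The 11 sites of chromosome 4 all had a PH control peak, and 7 had a PSC control replicate 2 peak. Their control scores ran from 252.24, on the site from 741960 to 743541, to 3100, reached by 3 sites including the 1 from 855002 to 857285. The other 2 of the 5 highest were from 715290 to 718972 (2985.99) and from 807656 to 809752 (1963.76). The lower ones scored 855.93 (630646 to 632245), 700.55 (924650 to 926609), 632.31 (950652 to 952312), 333.19 (1104798 to 1106175) and 333.1 (1166621 to 1168648). None of the other peaks of chromosome 4 was found in a mitotic list either, and the mitotic lists hold no peak on this chromosome at all. Isolated sites and other peaks of chromosome 4 were alike in this.

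The same rule was also applied to PH control and to PSC control replicate 2, which is not an independent comparison, since many of the peaks it selects lie at the same sites. In PH control 521 of 4589 arm peaks were isolated, and 411 of these (78.9%) lay at isolated sites of PSC control replicate 1. PH mitotic held a peak at 18 of them (3.45%, interval 2.06 to 5.41%, beside 3.18% of all PH control arm peaks) and PSC mitotic replicate 1 at 66 (12.7%, interval 9.93 to 15.8%, beside 12.1%). Against other PH control peaks at the same scores these stood 0.294 points (interval -1.10 to 2.24) and 0.567 points (interval -2.17 to 3.73) higher. Isolated PH peaks were thus found at shares within a few points of other PH peaks, and 487 of them (93.5%, beside 94.2% of all PH control arm peaks) overlapped a PSC control replicate 1 peak.

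In PSC control replicate 2, 610 of 3254 arm peaks were isolated, and 309 of these (50.7%) lay at isolated sites of PSC control replicate 1. PSC mitotic replicate 1 held a peak at 103 (16.9%, beside 15.9% of all arm peaks of that list), -0.891 points from other peaks at the same scores (interval -3.78 to 2.32), and PH mitotic at 29 (4.75%, beside 4.46%), -0.382 points (interval -1.93 to 1.62). PSC mitotic replicate 2 held a peak at 20 (3.28%, beside 1.6%), against a weighted 1.61% of other peaks, which is 1.67 points higher (interval 0.403 to 3.41). PH control held a peak at 93.8% of isolated sites, beside 95.5% of all, against a weighted 96.3%, which is -2.56 points (interval -4.78 to -0.778). These are 2 of 10 such differences over both lists, and they were the ones whose interval did not include 0.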

How the data were processed

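ChIP-SEQ peak lists of 6 samples were used, grouped and numbered as the sample labels give them. Reads of 36 bp had been mapped to dm3 by the authors with Bowtie, and peaks were called per sample with MACS (version 1.0.1 in the submitters' processing notes; p-value cutoff 1e-05, bandwidth 200, genome size 120000000), then filtered at a false discovery rate of 5% (not in mitotic PH) and cleared of the unplaced sequences U and Uextra. The deposited score of each peak was read as a p-value on a -10 log10 scale, since the lowest scores end at 50. Replicates were not pooled.

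Gaps were counted between peak edges on the same arm. Overlap meant 1 bp or more, and counts were the same with bedtools 2.31.1 in 5 of 5 lists. Other peaks were weighted to the isolated sites over 10 score bins of all arm peaks (direct standardisation). Intervals are exact binomial at 95%, and the limit given for 0 of 11 on chromosome 4 is a rough one (3 counts of 11). The work was done in Python 3.11.15 (pandas 2.3.3, numpy 2.4.6, scipy 1.17.1), and the steps were tested on simulated data. No test was run over peaks, since each list is 1 sample.

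The rule, the alternatives and the sites named were chosen with earlier results of these data known. The sites named were the 10 with the highest mitotic score among those in more than 1 mitotic list, the 5 with the highest control score, the 5 with the highest PSC mitotic replicate 1 score, the 3 with the widest gap, the 3 strongest in neither other control list, those on chromosome 4 and the 3 on either side of the limit. Others were named after their values were seen. No genome or annotation of dm3 was used here, so sequences, genes and motifs are not given.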

Additional observations from a re-analysis of the deposited data

How the results depend on the processing

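The number of isolated sites followed the rule, with 1115 at a gap of 10000 bp and 119 at 50000 bp, and stayed within 1.5 times of 517 for peak centres or for all control lists. Of 53 alternative shares, 39 stayed inside the interval of the share reported. Some of these could hardly move. Asking for overlap of 50% of the shorter peak, or allowing 500 bp of distance, returned the same shares as the main setting. A score of at least 100 could not change the share in PH control, where the lowest score was 165.56. The count of 39 therefore overstates how far the shares were tried. With a gap of 50000 bp the shares were 58.0% in PSC control replicate 2, 57.1% in both other control lists and 15.1% in any mitotic list. With a score of at least 100 in the other list they were 42.2% in PSC control replicate 2, 41.8% in both other control lists, 6.19% in PSC mitotic replicate 1, 0.580% in PSC mitotic replicate 2, 0.967% in PH mitotic and 6.38% in any mitotic list. The share in any mitotic list was 3.29% without PSC mitotic replicate 1 and 11.8% without PSC mitotic replicate 2. Without PSC control replicate 1 it was 17.2%, but of the 610 isolated peaks of PSC control replicate 2, a different set of sites. Of all arm peaks of that list, 15.9% overlapped PSC mitotic replicate 1, against 11.6% of those of PSC control replicate 1. Without PSC control replicate 2, 89.6% took the place of both other control lists. Of 60 alternative differences from score-matched peaks, 56 stayed inside the interval reported, where again the 50% overlap could hardly change a value. The others were PSC control replicate 2 at a gap of 50000 bp (-3.32 points, a change of sign), at a score of at least 100 (8.20) and for sites with no missing peak number beside them (7.87), and PSC mitotic replicate 1 at a gap of 50000 bp (3.98). The restriction to sites with no missing number, chosen after the data were seen, also gave shares of 71.6% in PSC control replicate 2 and 68.1% in both other control lists. It was put on the isolated sites only, not on the other peaks they were compared with. Score bins within each arm, also added later, left each difference inside its interval. The causes were not tested. No paired analysis was run. The sample labels number the PSC replicates but do not say whether equal numbers in control and mitotic cells mark a pair. The depth behind each list was not used here, so how it limits the shares is not known.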
